A study of Mus musculus with 6 samples.

Results

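The genes described here make nicotinamide adenine dinucleotide (NAD), recycle its breakdown product nicotinamide, or pass NAD on to its phosphorylated form NADP. They are 10 genes chosen by name from the 34718 genes of the deposited count table: Nampt, Nmnat1, Nmnat2, Nmnat3, Naprt, Nadsyn1, Nmrk1, Nnmt, Nadk and Nnt. All 10 were found in the table, and 9 had enough counts to test, Nmnat2 being the exception. The study sequenced messenger RNA from Hepa1-6, a mouse line derived from a hepatocellular tumour and grown in culture. Control cells (titled shNC, 3 libraries) were compared with cells carrying a short hairpin against Zfp207 (titled shZfp207, 3 libraries), and all 6 libraries came from the same line, which the labels also tag as tumor. Neither the number of hairpins nor the origin of the replicates (separate cultures or not) is stated in the labels. The p-values therefore measure a spread that may be technical, and effects of a hairpin other than loss of Zfp207 cannot be told apart from it.

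NAD carries electrons in metabolism and is also broken down by enzymes that use it as a substrate, which release nicotinamide. Cells rebuild it in several ways: NAMPT turns nicotinamide into nicotinamide mononucleotide, nicotinamide riboside kinases make the same mononucleotide from the riboside, NAPRT starts the Preiss-Handler route from nicotinic acid, and the kynurenine route builds the ring from tryptophan through QPRT. The routes meet at the NMNAT enzymes, and the acid branches then need NADSYN1 to add the amide. Liver is one of the few tissues with a complete kynurenine route, and the series is titled after kynurenine metabolism among other things.

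The libraries held between 11933736 and 16248346 counts. Control replicate 1 stood apart, with 10.5% of its counts from mitochondrially encoded genes against 2.67% and 2.89% in the other controls and 5.60% to 6.00% in the knockdown libraries, and for that reason differences are also given without it. For Zfp207, the knocked-down gene, the 3 controls held 141, 198 and 217 CPM (counts per 1000000 counts of the library, here and below in the order of replicates 1 to 3) and the 3 knockdown libraries 48.0, 48.1 and 46.8 CPM (log2 fold change -1.95, edgeR adjusted p = 0.00236). The hepatoma line was checked against markers: Alb and Afp had 524 to 2379 and 742 to 1960 CPM, and Ttr had 0 to 5 counts per library. Of the 5 immune markers, Cd3e, Ptprc and Adgre1 had 0, 0 to 8 and 0 to 2 counts per library. Lyz2 had 11 to 24 counts, and Cd68 had 149 to 208 counts (10.2 to 17.0 CPM). The summed level of the 10 hepatocyte markers was 6402 to 7523 CPM in control and 7686 to 7835 CPM in knockdown libraries. Of the 9 of these that were tested, edgeR called 3 higher (Alb, Afp and Apoa1, log2 fold changes 1.29, 1.12 and 0.85). It called 4 lower (Apoa2, Krt8, Krt18 and Trf, -2.23, -0.67, -0.64 and -0.55). The called markers were 77.8% of the 9, beside 20.6% called over all 11975 genes tested (9.92% higher and 10.7% lower). The summed level of 4 cholangiocyte markers was 115 to 209 and 98.4 to 103 CPM. Of these 4, 2 (Krt7 and Epcam), or 50%, were called lower, beside 10.7% lower over all genes. Krt19 went the other way, with 9, 5 and 4 counts in control and 21, 13 and 12 in knockdown libraries. Its log2 fold change was 1.24 and that of Sox9 -0.63, and neither was called (edgeR adjusted p = 0.122 and 0.164). Without control replicate 1, Krt19 was called higher and the other 3 lower, in a fit where 52.1% of all genes passed. The sums for 5 immune, 5 fibroblast and 3 endothelial markers were 14.1 to 19.1, 2044 to 2309 and 0.617 to 1.68 CPM in control. In knockdown libraries they were 11.6 to 13.7, 2701 to 2783 and 1.46 to 2.05 CPM. Nearly all of the fibroblast sum was Dcn, at 2019 to 2281 CPM in control and 2682 to 2765 CPM in knockdown libraries. Dcn had a log2 fold change of 0.33 and was not called (edgeR adjusted p = 0.0968). Pdgfra was called lower (-0.54, edgeR adjusted p = 0.0181), and Col1a1, Col1a2 and Pdgfrb had 0 to 11 counts per library. The part of these shifts in the values below was not tested, and fewer cells of a type and less RNA per cell cannot be told apart in such samples.

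Of the 9 tested genes, 1 fell and 0 rose in knockdown cells at an edgeR adjusted p below 0.05. Over all 11975 genes tested 20.6% passed, 10.7% lower and 9.92% higher, so that 1 of 9 is no more than the background share. The gene that fell was Nampt. At an unadjusted p below 0.05 edgeR gave 2 higher and 2 lower, where 35.9% of all genes passed (16.8% higher and 19.1% lower). DESeq2 called 1 higher and 2 lower of 10 after adjustment, beside 21.8% of the 13890 genes to which it gave an adjusted p (10.8% higher and 11% lower). The limma test on log2(FPKM + 1), from the deposited values per kilobase of transcript and library total, called 0 higher and 2 lower, beside 20.3% of all genes (9.71% higher and 10.6% lower). The median log2 fold change of the 9 was -0.19, beside -0.03 over all genes tested, and 4 were positive and 5 negative. In 4 of the 9 the CPM values of the groups did not overlap, Nampt and Naprt with lower and Nmnat3 and Nadk with higher knockdown values, and the share over all genes was 44.9% (21.5% higher and 23.4% lower). Without control replicate 1, 2 were called higher (Nmnat3 and Nadk) and 3 lower (Nampt, Naprt and Nadsyn1), in a fit where 52.1% of 12108 genes passed, 26.1% in each direction.

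**Figure D1:**
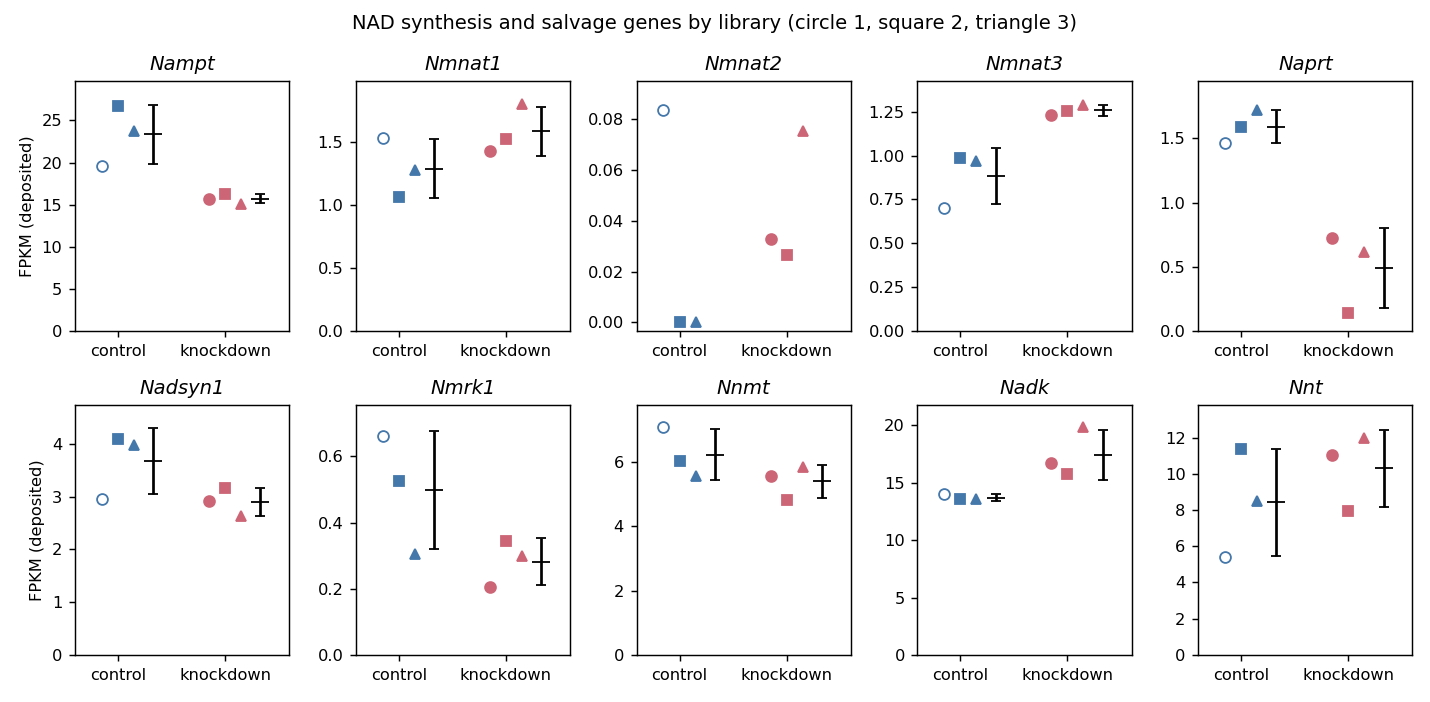
Deposited FPKM of the 10 genes in each library, 1 panel per gene, with control libraries in blue (replicate 1 as an open circle) and knockdown libraries in red, and the mean with its SD (n = 3) as a black bar; Nmnat2 has no bar because 2 of its control libraries are at 0. Nampt, Naprt, Nmnat3 and Nadk show no overlap between the groups, and the other 6 panels overlap.

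The stretch upstream of the transcription start is shown for 3 of those 4 genes, because their levels differed in opposite directions. Promoter windows from RefSeq (build GRCm38.p6, the assembly that mm10 denotes) matched 7 of the 10 genes, in 9 windows, and Naprt, Nnmt and Nnt had no entry. Each line gives the 250 bases before the start, 5′ to 3′ on the strand of the gene. Capitals mark matches on either strand to any of the 4 motifs searched: the GC box GGGCGG, bound by Sp and Klf factors, the CCAAT box CCAAT, the E-box CACGTG, bound among others by the clock factors CLOCK and BMAL1, and the cyclic AMP response element TGACGTCA. Nampt lies at chr12:32820085-32820334, Nmnat3 at chr9:98296320-98296569 and the more upstream of the Nadk windows at chr4:155562131-155562380, all on the plus strand. The Nampt and Nadk windows end at or within 3 bases of the gene start in the deposited table, and the RefSeq start of Nmnat3 lies inside the deposited gene span.
Nampt: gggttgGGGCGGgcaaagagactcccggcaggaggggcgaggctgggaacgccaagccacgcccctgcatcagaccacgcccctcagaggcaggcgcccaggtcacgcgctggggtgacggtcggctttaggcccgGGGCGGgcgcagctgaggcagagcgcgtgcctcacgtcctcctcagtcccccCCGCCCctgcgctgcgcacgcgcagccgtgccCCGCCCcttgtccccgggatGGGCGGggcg
Nmnat3: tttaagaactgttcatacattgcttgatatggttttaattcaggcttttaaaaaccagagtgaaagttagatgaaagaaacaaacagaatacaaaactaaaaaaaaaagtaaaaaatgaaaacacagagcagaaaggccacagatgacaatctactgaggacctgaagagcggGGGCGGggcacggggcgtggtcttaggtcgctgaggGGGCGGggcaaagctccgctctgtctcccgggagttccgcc
Nadk: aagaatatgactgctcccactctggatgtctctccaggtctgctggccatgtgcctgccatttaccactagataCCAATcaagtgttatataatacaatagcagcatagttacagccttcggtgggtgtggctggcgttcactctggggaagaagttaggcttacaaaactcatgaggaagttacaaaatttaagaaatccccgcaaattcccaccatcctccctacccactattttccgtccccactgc
The Nampt window held 5 GC boxes and was 75.6% G and C. The Nmnat3 window held 2 GC boxes at 45.6% G and C, and the Nadk window held 1 CCAAT box and no GC box at 46.8%. The other Nadk window held 1 GC box and 1 E-box. Among all 32851 windows of this length, 32.7% held a GC box, 33.9% a CCAAT box, 6.02% an E-box and 1.55% the cyclic AMP response element. Among the 9 windows of these genes the numbers were 6, 3, 1 and 0. The windows of Nmnat1 overlap one another and hold the same GC box, which is counted in each. These matches describe letters in a window and were not related to binding of any factor.

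Nampt encodes nicotinamide phosphoribosyltransferase, the rate-limiting enzyme of nicotinamide salvage. The gene (ENSMUSG00000020572) spans 32820335 to 32853369 on chromosome 12 (mm10, plus strand), with no annotated gene overlapping its exons. The controls held 89.2, 122 and 108 CPM and the knockdown libraries 71.7, 74.2 and 69.0 CPM. Every knockdown library lay below every control library, and control replicate 1 was the control nearest to them. In TMM-scaled CPM, the values behind the test, the group means were 106 ± 16.9 and 72.0 ± 2.56 CPM (SD, n = 3 each), a ratio of 0.679. On the log2 scale Nampt fell by 0.56 (SE 0.13, 95% interval -0.87 to -0.25, edgeR adjusted p = 0.0289). Without control replicate 1 the value was -0.68 (edgeR adjusted p = 0.000249). The call was lost without control replicate 2 or 3 or any 1 knockdown replicate, with edgeR adjusted p of 0.0729 to 0.125 and log2 fold changes of -0.59 to -0.45.

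The genes whose pattern over the 6 libraries was most like that of Nampt, by Pearson's r of log2 CPM, were Stxbp3 (r = 0.999), Eif2b3 (0.998) and Ift122 (0.995). All libraries are shared in this measure, and 352 of the 11974 other genes tested (2.94%) reached 0.95. Stxbp3, a syntaxin-binding protein gene with an annotated pseudogene that could share its reads, went from a mean of 58.7 to 43.8 CPM. Eif2b3, a subunit of the exchange factor of translation initiation factor eIF2, went from 53.6 to 42.4 CPM, and Ift122, a component of transport in cilia, from 31.4 to 18.6 CPM. Their log2 fold changes were -0.42, -0.34 and -0.76 (edgeR adjusted p = 0.0405, 0.0609 and 0.017), so that Eif2b3 was not called.

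The other entry points were low. Naprt encodes nicotinate phosphoribosyltransferase, which opens the Preiss-Handler route (minus strand, chromosome 15, 75890964 to 75894481). The controls held 33, 44 and 53 counts (2.77, 3.02 and 3.26 CPM), and the knockdown libraries 21, 4 and 17 counts (1.38, 0.265 and 1.16 CPM). All knockdown libraries were below all controls, and knockdown replicate 2 was the lowest. Its 4 counts allow 0.0723 to 0.679 CPM (exact 95% counting interval), which overlaps the interval of knockdown replicate 3 (0.677 to 1.86) but not that of knockdown replicate 1 (0.853 to 2.11), intervals that cover counting error only. The log2 fold change of -1.67 (SE 0.50, 95% interval -2.86 to -0.48) did not pass in edgeR (adjusted p = 0.0579), while DESeq2 gave -1.67 (adjusted p = 0.0175). It was -1.23 without knockdown replicate 2, and -1.73 without control replicate 1 (edgeR adjusted p = 0.0187). Of the exonic sequence of Naprt 11.8% overlaps Eef1d on the same strand, and reads there could be assigned to either gene.

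Nmrk1 encodes a nicotinamide riboside kinase. It had 3.18, 2.54 and 1.48 CPM in control and 0.984, 1.66 and 1.44 CPM in knockdown libraries, and the groups overlapped. Its log2 fold change was -0.79 (95% interval -1.68 to 0.10, edgeR adjusted p = 0.181). Nmrk2, the muscle isozyme, had 0 counts in all 6 libraries. So did Slc12a8, which has been described as a carrier of nicotinamide mononucleotide, and Slc22a13, which can carry nicotinic acid.

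The kynurenine route was close to undetected at several steps in both groups. Of the 13 genes listed for it, 7 had too few counts to test. The list also holds Acmsd and the aminotransferase genes Kyat1, Kyat3, Aadat and Got2, which are not steps towards quinolinate. Kmo, Haao and Qprt had 0 counts in every library. They encode kynurenine monooxygenase, the dioxygenase that makes the quinolinate precursor and the enzyme that turns quinolinate into the NAD precursor. A count of 0 allows up to 3 counts, or 0.185 to 0.251 CPM in control and 0.197 to 0.205 CPM in knockdown libraries. Of the enzymes that open tryptophan's ring, Tdo2 had 1 count over all libraries, Ido1 had 0 to 2 counts per library, and Ido2 had 9, 20 and 16 counts in control and 8, 6 and 6 in knockdown libraries (log2 fold change -1.20, edgeR adjusted p = 0.0646). Kynu, the kynureninase gene, had 0 to 14 counts and Aadat, an aminotransferase gene, 0 or 1. Afmid (kynurenine formamidase) and Acmsd, whose product diverts the route away from quinolinate, were measurable at 5.53 to 19.6 and 2.33 to 4.31 CPM, with log2 fold changes of 0.71 and 0.24 (edgeR adjusted p = 0.368 and 0.619), and an overlapping gene on the same strand covers 44.2% of the Afmid exons. Of the 6 listed genes tested, 1 was called lower, the aminotransferase gene Kyat3 (listed as Ccbl2, -0.56, edgeR adjusted p = 0.0172), and 0 higher, beside 20.6% of all genes. Among these 6 only Ido2 and Afmid are steps towards quinolinate, and neither was called with all 6 libraries. None of the listed genes was higher in edgeR at an unadjusted p below 0.05, in DESeq2 or in limma. For Kyat1 (listed as Ccbl1) the log2 fold change was -0.45 and for Got2, the mitochondrial aspartate aminotransferase gene, -0.06 (edgeR adjusted p = 0.152 and 0.83). Kyat3 lost its call when control replicate 3 or any 1 knockdown replicate was left out (edgeR adjusted p up to 0.0894). Without control replicate 1, 3 of the 6 were called lower (Kyat3, Ido2 and Got2, log2 fold changes -0.49, -1.37 and -0.23), in the fit where 52.1% of all genes passed, 26.1% lower.

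Set against one another by FPKM, which divides by gene length, the enzymes that open a route to NAD were dominated by Nampt. Of the summed FPKM of Nampt, Naprt, Nmrk1, Nmrk2 and Qprt, Nampt held 90.2%, 92.6% and 92.1% in control replicates 1 to 3 and 94.4%, 97.1% and 94.3% in knockdown replicates 1 to 3. Naprt held 6.73%, 5.53% and 6.68% in control and 4.37%, 0.836% and 3.82% in knockdown libraries, and Nmrk1 between 1.19% and 3.05% in all 6. Qprt and Nmrk2 were listed at 0. These shares were chosen after the values were seen and are a description. The Nampt share was higher in every knockdown library although its own level was lower, and the Naprt level was lower by a larger factor.

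**Figure D2:**
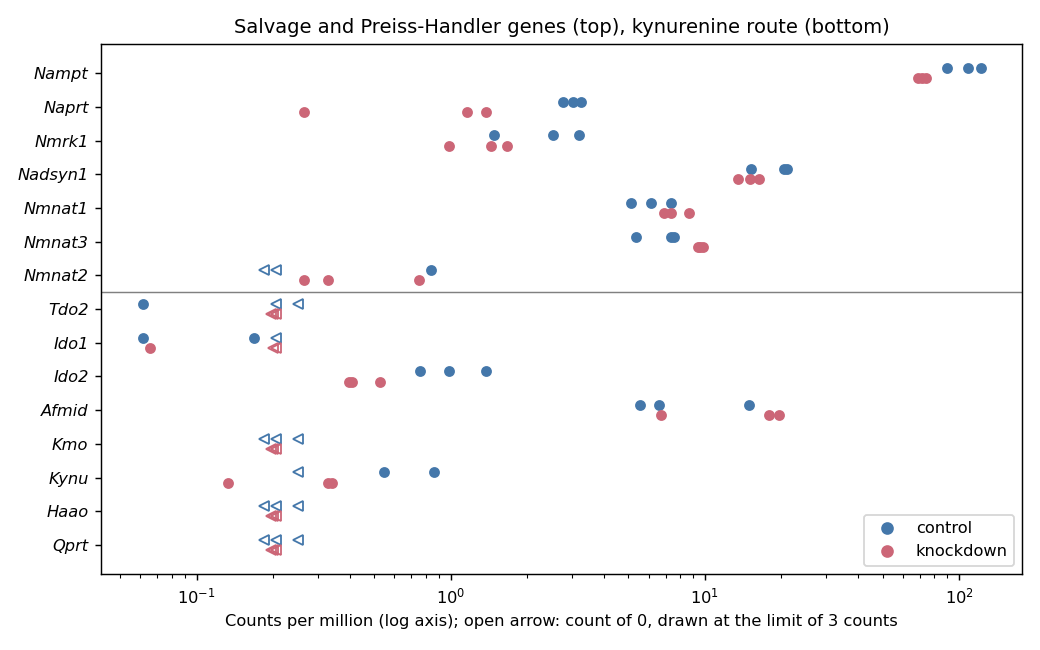
CPM of salvage and Preiss-Handler genes (above the line) and 8 of the 13 genes listed for the kynurenine route (below it) in each library. Acmsd, Kyat1, Kyat3, Aadat and Got2 are not drawn. The axis is log, with control in blue, knockdown in red and open arrows for counts of 0, at the limit that 3 counts allow. Of the genes drawn, Nampt lies farthest right, at 69.0 to 122 CPM, Kmo, Haao and Qprt have open arrows only, and points of 1 count lie to the left of the arrows.

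The step where the routes meet is catalysed by 3 isozymes, NMNAT1 in the nucleus, NMNAT2 at the Golgi and in axons, and NMNAT3, described in mitochondria. Nmnat3 (plus strand, chromosome 9, 98287435 to 98420438) had 5.36, 7.54 and 7.39 CPM in control and 9.39, 9.55 and 9.84 CPM in knockdown libraries. The groups did not overlap, and the lowest value was that of control replicate 1. The log2 fold change of 0.51 (SE 0.18, 95% interval 0.09 to 0.93) did not pass in edgeR (adjusted p = 0.0844), and it was 0.37 without control replicate 1 (edgeR adjusted p = 0.0275). Nmnat1 had 7.37, 5.14 and 6.15 CPM in control and 6.89, 7.36 and 8.68 CPM in knockdown libraries, which overlapped (log2 fold change 0.31, 95% interval -0.14 to 0.77, edgeR adjusted p = 0.285).

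Nmnat2 was near the detection limit. The controls held 10, 0 and 0 counts and the knockdown libraries 5, 4 and 11. Its control counts all came from control replicate 1, and without that library the control count was 0. In sum, the FPKM of the 3 isozyme genes was 2.31, 2.05 and 2.24 in control and 2.69, 2.80 and 3.16 in knockdown libraries. The means were 2.20 ± 0.135 and 2.88 ± 0.247 (SD, n = 3 each), and the two-sided exact permutation test gave p = 0.1, the smallest value that 3 against 3 libraries allow. Nmnat1 gave between 51.9% and 66.0% of this sum.

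Nadsyn1 encodes the NAD synthetase of the acid branches (minus strand, chromosome 7, 143795584 to 143822849). It had 15.17, 21.04 and 20.49 CPM in control and 15.03, 16.25 and 13.53 CPM in knockdown libraries. Control replicate 1 lay among the knockdown libraries and the other controls lay above them. Its log2 fold change was -0.33 with all libraries (95% interval -0.72 to 0.06, edgeR adjusted p = 0.203) and -0.47 without control replicate 1 (edgeR adjusted p = 0.00823).

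**Figure D3:**
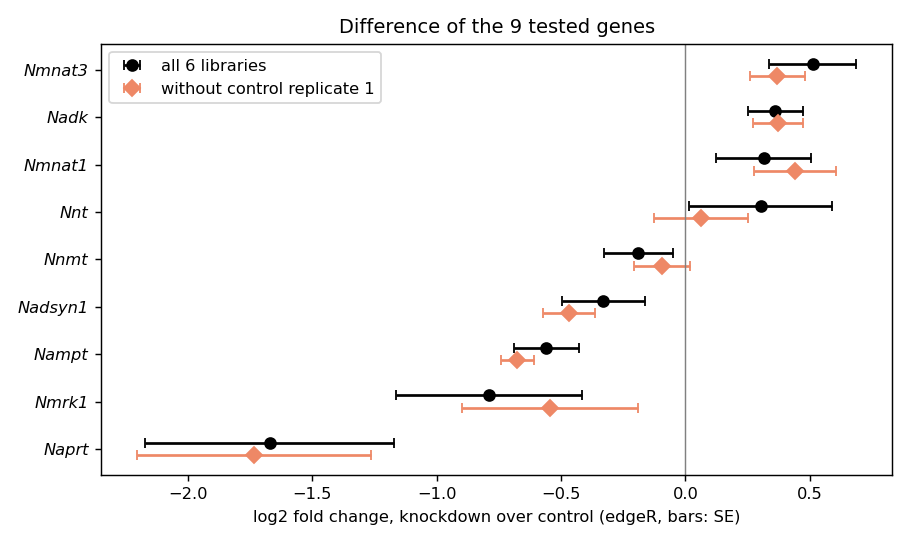
log2 fold change of knockdown over control for the 9 tested genes, with SE as bars, from the fit of all 6 libraries (black circles) and from the fit without control replicate 1 (orange diamonds). Each gene has the same sign in both fits, from Naprt at -1.67 to Nmnat3 at 0.51 with all libraries.

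Nnmt encodes nicotinamide N-methyltransferase, which competes with NAMPT for nicotinamide and sends it out of the salvage cycle. It had 21.6, 18.4 and 16.9 CPM in control and 16.9, 14.7 and 17.8 CPM in knockdown libraries, and the groups overlapped. The log2 fold change was -0.19 (95% interval -0.52 to 0.14, edgeR adjusted p = 0.375). The FPKM of Nampt was 2.76, 4.40 and 4.27 times that of Nnmt in control and 2.83, 3.36 and 2.59 times in knockdown libraries. Control replicate 1 again lay among the knockdown libraries, and the log2 of this ratio differed by -0.36 between the groups (1.54 ± 0.191 in knockdown, 1.90 ± 0.378 in control, SD, n = 3 each, two-sided exact permutation p = 0.3). Methylated nicotinamide is oxidised further by aldehyde oxidase, and Aox1 rose from 8.91 ± 0.738 to 15.3 ± 1.23 CPM (log2 fold change 0.78, edgeR adjusted p = 0.0108), a call kept in 3 of the 6 fits with a library left out.

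The kinases that make NADP from NAD had higher CPM in every knockdown library than in any control, as did 21.5% of all genes tested. Nadk, the cytosolic NAD kinase gene (plus strand, chromosome 4, 155562378 to 155591001), had 93.5, 90.3 and 90.3 CPM in control and 111, 105 and 132 CPM in knockdown libraries. The groups did not overlap, and the controls lay within a narrow range that included control replicate 1. The log2 fold change of 0.36 (SE 0.11, 95% interval 0.10 to 0.62) did not pass in edgeR (adjusted p = 0.0612), while DESeq2 called it (0.37, adjusted p = 0.0375), and it was 0.37 without control replicate 1 (edgeR adjusted p = 0.0179). Nadk2, the mitochondrial NAD kinase gene, had 42.3, 38.7 and 31.5 CPM in control and 50.7, 57.5 and 50.7 CPM in knockdown libraries. It rose by 0.51 (log2, SE 0.13, edgeR adjusted p = 0.0396). That call was kept without control replicate 1, lost without any of the other 5 libraries (edgeR adjusted p up to 0.149) and lost with upper-quartile scaling (edgeR adjusted p = 0.0722).

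The transhydrogenase gene Nnt varied among libraries of the same group. NNT sits in the inner mitochondrial membrane and uses the proton gradient to move hydride from NADH to NADP. Nnt (minus strand, chromosome 13, 119335448 to 119408997) had 40.1, 84.5 and 63.3 CPM in control and 82.0, 59.0 and 89.3 CPM in knockdown libraries. The groups overlapped, and control replicate 1 was lowest. The log2 fold change was 0.30 (95% interval -0.38 to 0.98, edgeR adjusted p = 0.496), and 0.06 without control replicate 1. The annotation holds a second gene model of Nnt, not used here, that covers 47.4% of the exonic sequence on the same strand. The mm10 assembly is that of the C57BL/6J strain, whose Nnt is known to lack several exons, so that reads from those exons, if Hepa1-6 has them, could not be counted.

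Compared by FPKM, Nampt had the highest mean in control cells (23.3 ± 3.56, SD, n = 3 here and for the values that follow), ahead of Nadk (13.7 ± 0.277), Nnt (8.42 ± 2.98) and Nnmt (6.24 ± 0.788). Nadsyn1 (3.68 ± 0.631), Naprt (1.59 ± 0.131), Nmnat1 (1.29 ± 0.232), Nmnat3 (0.886 ± 0.159) and Nmrk1 (0.498 ± 0.179) followed, and Nmnat2 was lowest. Among the control libraries, neighbours in this order overlapped only for Nnt and Nnmt and for Naprt and Nmnat1. In knockdown cells Nadk (17.4 ± 2.15) and Nampt (15.7 ± 0.562) overlapped at the top, and Nnt (10.3 ± 2.13), Nnmt (5.41 ± 0.517) and Nadsyn1 (2.91 ± 0.265) came next. Naprt (0.494 ± 0.311) lay below Nmnat1 (1.58 ± 0.192) and Nmnat3 (1.26 ± 0.0303) and overlapped Nmrk1 (0.282 ± 0.0713). The FPKM of Nampt was 1.397, 1.97 and 1.75 times that of Nadk in control and 0.942, 1.03 and 0.763 times in knockdown libraries.

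The enzymes that consume NAD were described from lists beside the synthesis genes. Sirtuins are deacylases that split NAD, and of the 7 genes 4 fell and 0 rose in knockdown cells, 57.1% against the 20.6% of all genes tested. None of the 7 was higher in edgeR at an unadjusted p below 0.05, in DESeq2 or in limma, and the median log2 fold change was -0.63, beside -0.03 over all genes. Sirt1, the nuclear deacetylase, had 29.2, 36.2 and 34.3 CPM in control and 17.5, 16.9 and 16.7 CPM in knockdown libraries, and every knockdown value was below every control value. Sirt1 fell by 0.95 (log2, SE 0.12, edgeR adjusted p = 0.00551), and its call held with each library left out. Sirt2, mainly cytosolic, fell by 0.65, Sirt6, which acts on chromatin, by 0.65 and Sirt7, of the nucleolus, by 0.44 in log2 units (edgeR adjusted p = 0.0106, 0.0155 and 0.0345). These 3 kept their calls in 4, 3 and 1 of the 6 fits with a library left out, and the highest edgeR adjusted p was 0.145. The call of Sirt7 was also lost with no filter beyond 1 count (edgeR adjusted p = 0.063). The mitochondrial sirtuin genes Sirt3, Sirt4 and Sirt5 had log2 fold changes of -0.04, -0.63 and -0.08 (edgeR adjusted p = 0.921, 0.15 and 0.724), a difference from the other 4 that was not tested. Without control replicate 1 they were 0.020, -0.31 and -0.036 (edgeR adjusted p = 0.947, 0.151 and 0.829). Without control replicate 1 the count was again 4 lower and 0 higher (57.1%, beside 52.1% of all genes). It was 2 lower without control replicate 3, knockdown replicate 1 or knockdown replicate 2. In those fits 1260 of 12173, 719 of 12130 and 596 of 12145 genes were called over all genes. Without knockdown replicate 3 it was 1 lower, beside 534 of 12212 over all genes.

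ADP-ribosyltransferases, which attach the ADP-ribose of NAD to proteins, had calls in both directions. Of 15 genes 1 rose and 2 fell, close to the share over all genes, with a median log2 fold change of 0.02. Parp12 rose by 0.52 in log2 units, and Parp16, of the endoplasmic reticulum, and Tiparp, a target of the aryl hydrocarbon receptor, fell by 0.71 and 0.45 (edgeR adjusted p = 0.0336, 0.0125 and 0.0218). They kept their calls in 1, 3 and 1 of the 6 fits with a library left out, and that of Parp12 was lost with upper-quartile scaling (edgeR adjusted p = 0.061). Parp1, the main DNA damage-activated polymerase, had 225 to 283 CPM in control and 262 to 271 CPM in knockdown libraries (log2 fold change 0.03, edgeR adjusted p = 0.893).

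Of the 3 genes of enzymes that split NAD into nicotinamide and ADP-ribose, 2 were tested and Cd38 was called higher. Over all genes tested 20.6% were called, 9.92% higher. Cd38 had 6.79, 4.39 and 5.72 CPM in control and 10.6, 9.22 and 11.8 CPM in knockdown libraries. The groups did not overlap, and 21.5% of all genes tested had no overlap with knockdown higher. The log2 fold change of Cd38 was 0.92 (SE 0.20, edgeR adjusted p = 0.0228). This call held without control replicate 1 (1.06) and was lost with any of the other 5 libraries left out, and edgeR then gave adjusted p of 0.0548 to 0.103. Its neighbour and paralog Bst1 was at 81.8 to 93.3 CPM in control and 92.5 to 93.7 CPM in knockdown libraries (log2 fold change 0.09, edgeR adjusted p = 0.47). Sarm1 had 11, 12 and 8 counts in control and 3, 6 and 1 in knockdown libraries, too few to be tested.

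**Figure D4:**
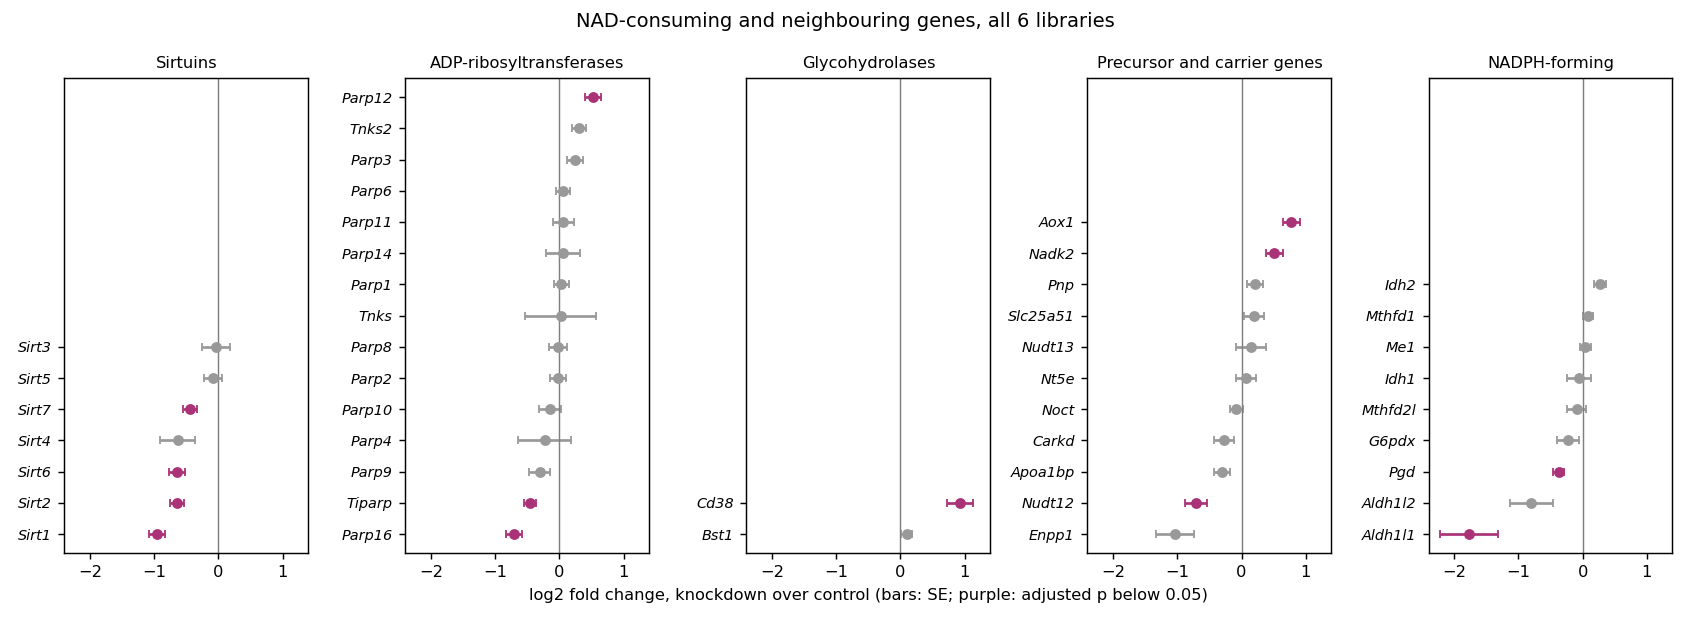
log2 fold change of knockdown over control for the tested genes of the NAD-consuming and neighbouring lists, all 6 libraries, with SE as bars and genes at an edgeR adjusted p below 0.05 in purple. All 7 sirtuins are at or below 0, with 4 in purple, and the other panels have genes on both sides of 0 except the glycohydrolases.

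Further genes of NAD handling were called at shares near that of all genes tested. Of 17 genes of precursors, carriers and NAD turnover, 11 were tested, 2 rose (Nadk2 and Aox1) and 1 fell (Nudt12), together 27.3%. Of 10 genes of NADPH-forming dehydrogenases 9 were tested, 2 fell and 0 rose, or 22.2%. Over all genes tested 20.6% were called, 9.92% higher and 10.7% lower. Nudt12 encodes a peroxisomal hydrolase of NADH and of NAD-capped RNA. It went from 11.8 ± 1.56 to 7.20 ± 0.970 CPM (log2 fold change -0.72, edgeR adjusted p = 0.0307). Among the 6 fits with a library left out, that call was kept only without control replicate 1. Enpp1, a surface enzyme that can split NAD, had a log2 fold change of -1.04 (edgeR adjusted p = 0.0502). It was called lower in DESeq2 (adjusted p = 0.0132), and in edgeR with upper-quartile scaling (adjusted p = 0.0359), with a filter of 1 CPM in 3 libraries (0.0493) and without control replicate 1 (-1.29, 0.000713). Slc25a51, the mitochondrial NAD carrier, had a log2 fold change of 0.20 (edgeR adjusted p = 0.397), and of 0.37 without control replicate 1 (edgeR adjusted p = 0.00557). Of the NADPH-forming genes, 1 was higher at an unadjusted p below 0.05 in edgeR and none was in DESeq2 or limma after adjustment. Pgd, of the pentose phosphate pathway, fell by 0.37 in log2 units, and Aldh1l1, a formyltetrahydrofolate dehydrogenase gene at 2.92 ± 1.27 CPM in control cells, by 1.77 (edgeR adjusted p = 0.031 and 0.0375). Of the 6 fits with a library left out, both kept their calls only in that without control replicate 1, where 1 of the 9 was higher and 5 were lower, beside 52.1% called over all genes. The call of Pgd was also lost with no filter beyond 1 count (edgeR adjusted p = 0.0682), and that of Aldh1l1 in limma (adjusted p = 0.0557). Nmrk2, Slc12a8, Slc22a13, Sarm1, Sirt3, Sirt4, Sirt5, Parp1, Bst1, Enpp1 and Slc25a51 were named after their values were seen.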

How the data were processed

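RNA of 3 control and 3 Zfp207 knockdown libraries of Hepa1-6 was analysed from the deposited tables. The authors deposited whole-number read counts per gene, not normalized, and FPKM values for the same 34718 genes, per the file headers. HISAT2 2.0.5, featureCounts 1.5.0-p3 and mm10 appear in the submitters' processing notes without roles. No annotation or strand setting is given in the sources used here, and reads of genes that overlap on opposite strands may be mixed. The gene length implied by the deposited counts and FPKM was the same in all libraries within 0.0218% over 7328 genes with many counts, so FPKM carry only the scaling by library total. All 12 per-sample columns were used.

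The test was edgeR 4.0.16 in R 4.3.3, with filterByExpr, TMM scaling and a quasi-likelihood test. The group was the only term, and all 6 libraries were used. Benjamini-Hochberg adjustment ran over 11975 genes, and genes were called at an adjusted p below 0.05. The procedure was also run on simulated data, in which no library stood apart as control replicate 1 does. That run therefore does not bear on how far the calls depend on single libraries. The SE is the log2 fold change divided by the square root of the F statistic, and 95% intervals use its t distribution. Means ± SD given in CPM are TMM-scaled, and those of FPKM, its sums and its log2 ratios are from the deposited values. CPM values per library are not TMM-scaled. Exonic overlap comes from GENCODE M21 (GRCm38), where 98.6% of the gene identifiers were found. Ratios and sums of FPKM were tested by exact permutation in scipy 1.17.1. Alternatives tried were upper-quartile and RLE scaling, leaving out mitochondrially encoded genes, no filter beyond 1 count, a filter of 1 CPM in 3 libraries, DESeq2 1.42.0, limma 3.58.1 on log2(FPKM + 1), a replicate block and leaving out each library.

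The rule for named genes takes Zfp207, the 10 genes, all kynurenine-route genes, the called genes of each other list and the 3 protein-coding genes most like each called one of the 10. Genes outside it (Sirt3, Sirt4, Sirt5, Parp1, Bst1, Slc25a51, Enpp1, Tnks, Parp4, Nmrk2, Slc12a8, Slc22a13 and Sarm1) were chosen after their values were seen. So were the markers Ttr, Krt19, Sox9, Cd3e, Ptprc, Adgre1, Lyz2, Cd68, Dcn, Col1a1, Col1a2 and Pdgfrb. The genes and lists were chosen with earlier results of these data known.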

Additional observations from a re-analysis of the deposited data

How the results depend on the processing

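The direction of all 9 tested genes of NAD synthesis and salvage was the same under every alternative run, while the calls depended on the libraries. With 1 library left out, the count over all genes ranged from 534 to 6313 (2466 with all), that of lower genes among the 9 or 10 tested from 0 to 3 and of higher ones from 0 to 2, and their median log2 fold change from -0.25 to 0.11. The fits with knockdown replicate 3, 2 or 1 left out gave the fewest calls (534, 596 and 719), those without control replicate 3 or 2 gave 1260 and 1529, and that without control replicate 1 the most. DESeq2 called 1 higher and 2 lower, and limma on log2(FPKM + 1) 2 lower. The median was 0.060 with no filter beyond 1 count and 0.065 in DESeq2, where Nmnat2 entered as well.

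Same-numbered libraries showed little joint deviation (correlations of deviations from the group means of -0.00800, 0.00771 and 0.0527). Control replicates 1 and 2 each correlated best with a knockdown library of another number, and control replicate 3 with knockdown replicate 3. With 3 libraries a group, these values cannot show whether same-numbered libraries were prepared together. With the replicate number as a block, 987 genes passed and 0 of the 9 were lower, Nampt having an edgeR adjusted p = 0.0644, and of the other NAD lists only the sirtuins had calls (2 lower).

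Among other named genes 5 changed sign, with main values between -0.23 (Parp4) and 0.03 (Parp1). With upper-quartile scaling Parp1 was at -0.030 and Tnks at -0.023. With 1 library left out the log2 fold changes ranged from -0.079 (without control replicate 1) to 0.087 for Parp1, from -0.24 to 0.12 (without knockdown replicate 3, and 0.020 without control replicate 1) for Sirt3, from -0.23 to 0.044 (without control replicate 2, and 0.025 without control replicate 3) for Got2, from -0.61 to 0.038 (without control replicate 2) for Parp4, and from -0.44 (without control replicate 1, and -0.00019 without knockdown replicate 3) to 0.35 for Tnks. The cause was not tested. The knockdown minus control difference of the log2 ratio of Nampt to Nnmt was -0.58 to -0.24 with a library left out. Counts of 0 to 20 per library limit what can be said of Nmnat2, Tdo2, Ido1, Ido2, Kynu and Sarm1.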

Other observations

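The ADP-ribosyltransferase genes Tnks and Parp4, named after their values were seen, differed widely between control libraries. Tnks, which encodes tankyrase, a regulator of telomeres and of axin, was at 36.3, 201 and 190 CPM in the controls, in replicate order, and at 142, 142 and 147 CPM in the knockdown libraries. Parp4, of the vault particle, had 27.5, 92.4 and 87.2 CPM in control and 60.2, 59.2 and 56.3 CPM in knockdown libraries. For both genes control replicate 1 lay below, and the other controls above, all knockdown libraries. With all libraries the log2 fold changes were 0.02 and -0.23 (edgeR adjusted p = 0.986 and 0.726), and without control replicate 1 they were -0.44 and -0.61 (edgeR adjusted p = 0.000321 and 0.00023). The share of mitochondrially encoded counts in control replicate 1 was 10.5%, and its part in these values was not tested.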
